A study of Drosophila melanogaster with 4 samples.

Results

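The 5 genes followed here were gcm, gcm2, repo, pnt and ttk, which encode transcription factors of glial fate in the fly. They were taken by name from the 13997 genes listed over 4 RNA sequencing libraries of whole central nervous systems of Drosophila melanogaster larvae, and all 5 were listed in every library. The larvae were at 96 hours after egg laying, and each library pooled 70 to 100 dissected nervous systems. In the 2 control libraries the genotype was repo-Gal4>mRFP, in which the glial driver repo-Gal4 expressed a red fluorescent protein. In the 2 reprogrammed libraries the same driver expressed constitutively activated forms of both Egfr, the epidermal growth factor receptor, and PI3K92E, a catalytic phosphoinositide 3-kinase subunit. The driver uses regulatory sequence of repo, so both transgenes were directed to glia by one of the genes measured here. The groups differ in the whole genotype, so the activated proteins and any other difference of genetic background cannot be told apart.

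Glial fate in Drosophila starts with Gcm, a zinc-dependent DNA-binding protein that turns embryonic neural precursors from the neuronal to the glial path and is switched off again once glia form. Its close relative Gcm2 acts redundantly with it. Gcm switches on further factors: Repo, a homeodomain protein kept on in nearly all lateral glia and needed for their terminal differentiation; Pointed (pnt), an Ets-domain activator that also serves as the nuclear effector of Egfr and Ras signalling; and Tramtrack (ttk), a BTB zinc-finger repressor that holds back neuronal genes. In the larval brain gcm and gcm2 are also used in the lamina of the optic lobe, where they act in both glial and neuronal development, and elsewhere in the animal they act in blood cells.

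Each value is in FPKM (fragments per kilobase of transcript, relative to the mapped total), so levels can be set side by side between genes. Changes are differences of log2(FPKM + 1), reprogrammed minus control, a scale that shrinks the change of genes near 1 FPKM or below. They carry the standard error (SE) and the two-sided Benjamini-Hochberg adjusted p from limma, fitted over the 9851 genes that reached 1 FPKM in 2 or more libraries, with n = 2 per group. The labels name no separate cultures or crosses behind the replicates, so these p-values measure the spread between pooled samples, which may be technical. A gene is called at an adjusted p under 0.05. Judged from the spacing of low values, 1 FPKM on a transcript of 1 kilobase stood for 10.8 to 11.9 reads, depending on the library. The 2 controls were less alike than the 2 reprogrammed libraries (SD of the log2 difference over genes 0.88 against 0.59). The transgene targets followed the labels, with Egfr at 8.60 and 11.4 FPKM in controls and 58.9 and 49.3 in reprogrammed libraries, and Pi3K92E at 8.28 and 17.1 against 287 and 253. Markers of other tissues varied between libraries of the same group. The summed FPKM of 6 fat body markers was 214.6 and 1322.1 in controls and 7.18 and 470.5 in reprogrammed libraries, and that of 8 muscle markers was 90.1, 461.8, 44.0 and 134.2 in the same order. Among the fat body markers 1 of 6 tested genes was called lower, and 6 of 6 without reprogrammed replicate 2. The 1 call with all 4 libraries was 16.7% of the list, against 8.13% of all tested genes called lower. The fat body median change of −2.26 became −0.09 and −4.49 without reprogrammed replicate 1 and 2, and −3.61 and −0.53 without control replicate 1 and 2. Of the muscle markers 7 were tested, and limma called 0, with 0 at an unadjusted p under 0.05, and called 3 lower without control replicate 1 or without reprogrammed replicate 2. All 14 of these markers were listed above 0 in each library, and their part in the results below was not tested.

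The 5 genes did not move together. The fate switch gcm was nearly lost, repo was 3.10-fold higher, gcm2 was low in all libraries, and pnt and ttk had changes near the median of all genes. limma called repo higher and gcm lower, 2 of the 5. Over all tested genes 12.2% were called, 4.11% higher and 8.13% lower. The groups did not overlap for gcm, gcm2 and repo. Such separation was common, since 63.4% of all tested genes showed it, 22.6% with the reprogrammed libraries higher and 40.8% with them lower. Over all tested genes the median change was −0.25, and it moved to 0.06 when libraries were scaled to the same median FPKM (median scaling), to −0.49 when scaled to the same summed FPKM (sum scaling) and to −0.04 under quantile normalization. Of all calls 33.6% were higher, a share that became 57.2%, 20.1% and 59.7% under those scalings and 60.0% once the dependence on transcript length was subtracted (length correction).

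**Figure D1:**
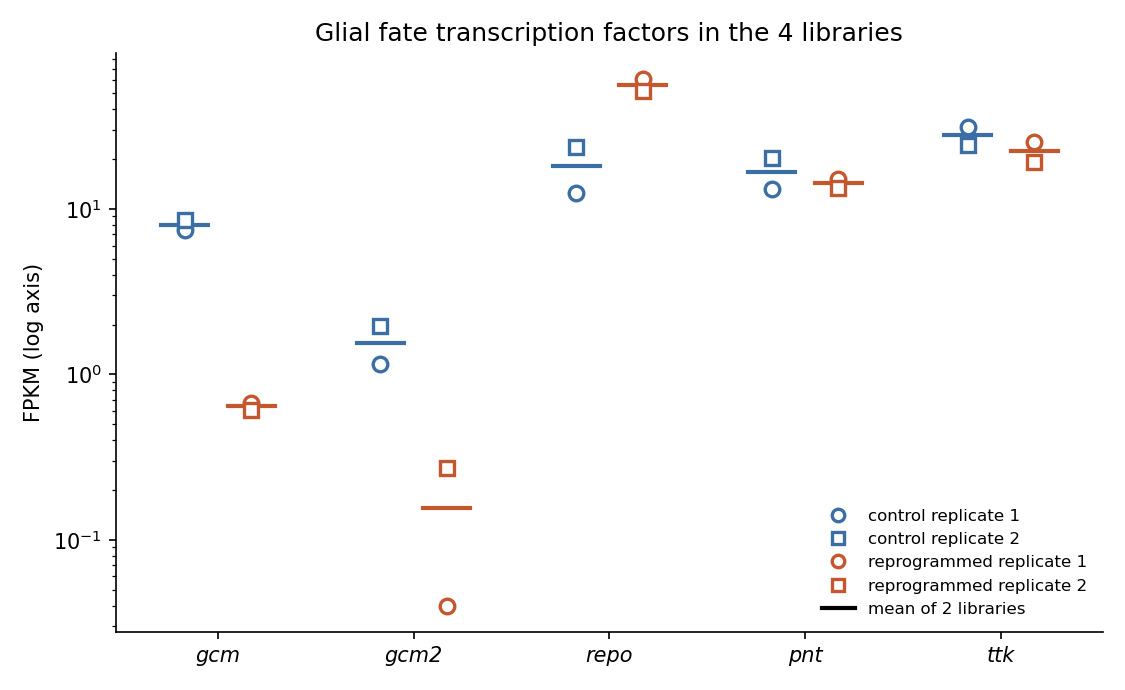
FPKM of each factor in each library on a log axis, with circles for replicate 1, squares for replicate 2 and a bar at the mean of the 2 libraries of a group. The reprogrammed libraries lie below both controls for gcm and gcm2, above both for repo, and overlap the controls for pnt and ttk.

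Among the master regulators, gcm (NCBI gene 34277) had 7.48 and 8.54 FPKM in control replicates 1 and 2. It stood at 0.67 and 0.61 FPKM in reprogrammed replicates 1 and 2. Both groups were tight, with replicates 1.14-fold and 1.10-fold apart, and the lowest control was 11.2-fold above the highest reprogrammed library. The mean was 12.5-fold lower, 8.01 ± 0.75 against 0.64 ± 0.0424 FPKM (SD, n = 2), a log2 change of −2.46 ± 0.31 (SE; limma adjusted p = 0.0297). Reads were estimated with the longer annotated transcript. The residual level rested on few of them, about 15.7 and 14.6 in the reprogrammed libraries against 182.4 and 221.6 in controls. Counting error alone places the fold between 8.51 and 18.3 (95% exact interval over the summed reads). On the log2(FPKM + 1) scale its change ranked 39 from the lowest of 9851 genes. Of the 3491 genes within 2-fold of its control level, 9 changed further downward. Of the 7018 tested genes at 5 FPKM or more in both controls, 12 were under 1 FPKM in both reprogrammed libraries, gcm among them. The rank and these counts describe the values behind the call and are no separate support for it. The call was lost without reprogrammed replicate 1 (limma adjusted p = 0.0512), where only the controls inform the spread, and with no filter on low values (0.0843).

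The related gene gcm2 (NCBI gene 34280), was the lowest of the 5 in all libraries. It read 1.16 and 1.95 FPKM in controls and 0.04 and 0.27 in reprogrammed libraries. All 4 values are low, the groups do not overlap, and the reprogrammed libraries are 6.75-fold apart. In reads these values are about 30.3 and 54.2 against about 1.0 and 6.9. Over the summed reads the level was 9.88-fold lower, with a 95% exact interval of 4.79 to 23.6 that covers counting error only. The log2 change of −1.14 ± 0.32 did not pass (limma adjusted p = 0.0675, 95% interval −1.92 to −0.35). It did pass without control replicate 1 (adjusted p = 0.0331). With a pseudocount of 0.1 the change was −2.82 ± 0.82 and did not pass (0.0755). Both gcm2 and gcm entered the test through their control values, since neither reached 1 FPKM in a reprogrammed library. The gcm level was 6.45 and 4.38 times that of gcm2 in the controls and 16.8 and 2.26 times in the reprogrammed libraries. The reprogrammed ratios rest on the few gcm2 reads given above. A two-sided exact permutation test of the log2 ratio gave p = 1.0. With 2 libraries against 2 it cannot go below 0.333, so it cannot decide whether the ratio changed.

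The 2 gcm genes lie close together, with 3 other annotated genes between them in the RefSeq table. These were lncRNA:CR43621, CG3841 and CG4382, at 0 to 0.22, 0 to 0.05 and 0.05 to 0.32 FPKM over the 4 libraries. All 3 annotated genes were near 0 in both groups. CG31709, which overlaps gcm in that table, stood at 0.19 FPKM in control replicate 1 and at 0 in the other libraries. No strand-marking step is named in the labels' protocols, so reads of overlapping genes cannot be told apart.

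Of the downstream differentiation factors, repo (NCBI gene 47285) was the gene that rose. It stood at 12.4 and 23.7 FPKM in controls and at 60.7 and 51.5 in reprogrammed libraries. The controls were 1.91-fold apart and the reprogrammed libraries 1.18-fold, and the lowest reprogrammed library was 2.17-fold above the highest control. The mean was 3.10-fold higher, 18.1 ± 8.01 against 56.1 ± 6.51 FPKM (SD, n = 2). The log2 change was 1.64 ± 0.38 (limma adjusted p = 0.0474), ranking 384 from the highest of the tested genes. The call was lost under sum scaling (adjusted p = 0.0737), with a pseudocount of 0.1 (0.0520), with no filter (0.0971), and without reprogrammed replicate 1 (0.332) or 2 (0.133). CG7156, which overlaps repo, stood at 3.90 and 5.73 FPKM in controls and at 4.19 and 4.10 in reprogrammed libraries.

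The Ets activator pnt (NCBI gene 42757) measured 13.1 and 20.4 FPKM in controls and at 15.3 and 13.4 in reprogrammed libraries. Both reprogrammed values lie between the controls. Its log2 change was −0.19 ± 0.34 (limma adjusted p = 0.738), with a 95% interval from −1.03 to 0.65, which includes changes of either sign. The files give 1 value for the 4 RefSeq transcripts of pnt, and its P1 and P2 protein forms, of which P2 is the one phosphorylated by MAP kinase, were not separated. The sign turned with the scaling, to 0.14 under median scaling and 0.08 under quantile normalization, and after length correction (0.48), and none of these passed in limma.

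The repressor ttk (NCBI gene 48317) measured 31.1 and 24.5 FPKM in controls and at 25.3 and 19.1 in reprogrammed libraries. The groups overlap, with 1 reprogrammed library above the lower control. The log2 change was −0.31 ± 0.31 (limma adjusted p = 0.519), with a 95% interval from −1.08 to 0.45. One value stands for its 8 RefSeq transcripts, so the Ttk69 and Ttk88 forms were not separated. Its sign also turned, to 0.01 under median scaling and 0.42 after length correction. Against the median change of all tested genes, pnt lay 0.06 above and ttk 0.07 below. These 2 genes have the longest transcripts of the 5, at 4074 and 4564 bases in the Ensembl annotation against 2173 for gcm, 2328 for gcm2 and 2996 for repo.

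**Figure D2:**
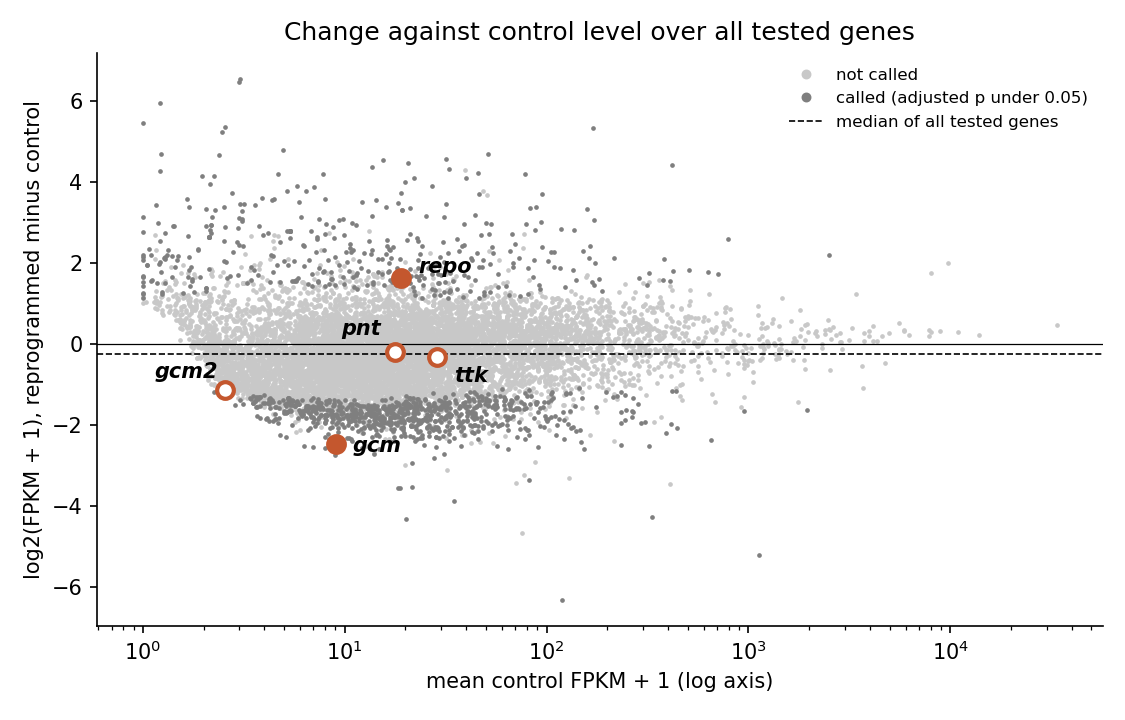
Log2 change, reprogrammed minus control, against the mean control FPKM plus 1 (log axis) for the 9851 tested genes, with called genes in dark grey and the 5 factors in orange, filled where called. The filled points of gcm at −2.46 and repo at 1.64 lie on opposite sides of the cloud, with 107 genes of like control level above repo and 9 below gcm, and pnt and ttk lie near the dashed median of −0.25.

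The order of the 5 levels changed between the groups. In control replicate 1 the order from high to low was ttk, pnt, repo, gcm and gcm2, and in control replicate 2 it was ttk, repo, pnt, gcm and gcm2. Neighbouring ttk, repo and pnt overlapped over the 2 controls only in part: repo and pnt did so, at 12.4 to 23.7 and 13.1 to 20.4 FPKM, while the lowest ttk value lay just above the highest repo value. In both reprogrammed libraries repo came first, followed by ttk, pnt, gcm and gcm2, and no 2 neighbours overlapped. Of the summed FPKM of the 5 genes, repo made up 19% and 30% in controls and 59.5% and 60.7% in reprogrammed libraries, and gcm made up 11.4% and 10.8% against 0.657% and 0.719%.

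Ratios of FPKM within a library are not altered by multiplying all its values by 1 factor, as median and sum scaling do. The ratio of gcm to repo was 0.603 and 0.36 in controls and 0.011 and 0.0119 in reprogrammed libraries, a log2 difference of −5.35. For gcm to ttk it was 0.24 and 0.349 against 0.0265 and 0.0319, and for repo to pnt 0.944 and 1.17 against 3.98 and 3.86. Groups separated in 8 of the 10 ratios between the 5 genes, and the exceptions were gcm to gcm2 and pnt to ttk. All 10 reuse the same 5 values of each library, so they are no separate support for the changes above. With 2 libraries against 2, an exact two-sided permutation test cannot go below 0.333, which is the p these 8 ratios gave.

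The factors were also set against 16 glial differentiation genes, a measure chosen after their values were seen. In these bulk samples a different number of glia and a different amount of RNA per glial cell cannot be told apart. Of the 16 genes 7 rose (43.8%, against 4.11% of all tested genes) and 9 did not pass in limma, with a median change of 1.41 (range 1.15 to 1.75 over the scalings) and 13 of 16 changes positive (11 of 16 without control replicate 1). At the blood-brain barrier, the receptor gene moody and the efflux transporter gene Mdr65 rose by 3.36 ± 0.30 and 3.16 ± 0.42. The sodium pump subunit gene nrv2 rose by 2.09 ± 0.31, and wrapper, a glial cell surface gene, by 1.90 ± 0.31. The calls of nrv2 (adjusted p = 0.215 and 0.0792) and wrapper (0.0991 and 0.0710) were lost without reprogrammed replicate 1 and without replicate 2. Gs2, glutamine synthetase, did not pass at 95.7 and 342.8 FPKM in controls and 257.3 and 279.5 in reprogrammed libraries, nor did the gap junction gene Inx2 (log2 change −0.25). The number of the 16 called higher was 2 without either reprogrammed library and 9 or 11 without control replicate 1 or 2, with 1 gene called lower in the first of these fits.

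The summed FPKM of these 16 genes was 1272.5 and 1539.9 in controls and 3736.8 and 3510.0 in reprogrammed libraries. As a percentage of that sum, repo stood at 0.975 and 1.54 in controls and at 1.62 and 1.47 in reprogrammed libraries. The groups overlap on this scale (log2 difference 0.33, exact permutation p = 0.667). The sum leans on nrv2, which held 24.0% to 47.2% of it, and without nrv2 the repo percentages were 1.41 and 2.03 against 3.07 and 2.56, with no overlap. For gcm the percentages were 0.588 and 0.555 in controls and 0.0179 and 0.0174 in reprogrammed libraries, a log2 difference of −5.02, or −4.62 without nrv2. Relative to glial transcripts pnt read 1.03 and 1.32 against 0.408 and 0.38, and ttk 2.45 and 1.59 against 0.678 and 0.545. Since gcm, gcm2, pnt and ttk are also used outside glia, their percentages do not measure levels in glia.

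**Figure D3:**
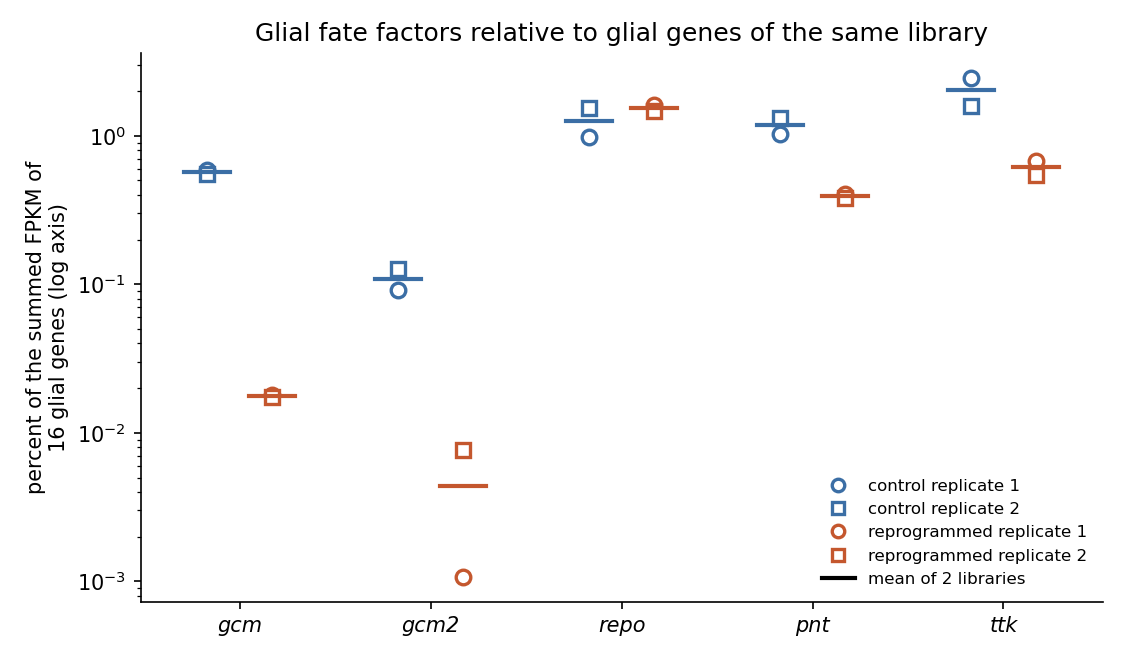
FPKM of each factor as a percentage of the summed FPKM of 16 glial genes of the same library, on a log axis, with circles for replicate 1, squares for replicate 2 and bars at the means. For repo the groups overlap between 0.975% and 1.62%, whereas gcm lies near 0.57% in controls and near 0.018% in reprogrammed libraries.

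Genes of Gcm cofactors, of Gcm degradation and of Gcm targets were mixed. The list held 8 genes, of which loco rose (12.5%, against 4.11% of all tested genes), pros fell (12.5%, against 8.13%) and 6 did not pass. The list median was −0.90, and −0.13 after length correction, against −0.25 for all tested genes. The glial gene loco, which encodes a regulator of G protein signalling and is a known target of Gcm and Repo, stood at 11.2 and 19.1 FPKM in controls and 89.6 and 77.3 in reprogrammed libraries. Its log2 change was 2.43 ± 0.34 (limma adjusted p = 0.0324), and its call was kept under all alternatives with a filter. The homeodomain gene pros, known in neural stem cell daughters and in some glia, went from 134.2 ± 49.8 to 30.8 ± 5.44 FPKM (−2.05 ± 0.35, adjusted p = 0.0350), a call lost under median scaling (0.0687), after length correction (0.0917) and without reprogrammed replicate 1 (0.114). The adhesion gene uzip read 43.2 and 69.0 against 116.6 and 96.2 FPKM (adjusted p = 0.107), and Rca1, a cell cycle regulator that interacts with gcm, read 28.5 and 46.0 against 18.1 and 21.6 (0.145).

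Around pnt, 1 of 8 Ets factors and Pnt antagonists fell and 7 did not pass, a share of 12.5% that is near the 8.13% of all tested genes called lower (median −0.42, with 4 of 8 changes positive under median scaling). The one that fell was Ets65A, at 27.1 and 15.5 FPKM in controls and 2.38 and 4.04 in reprogrammed libraries (−2.39 ± 0.42, limma adjusted p = 0.0363). That call was lost under median scaling (0.0505), under quantile normalization (0.0665), after length correction (0.0739) and without reprogrammed replicate 1 (0.181). The gene edl, whose small protein binds the Ets factors Yan and Pnt-P2, read 15.6 and 23.4 against 60.0 and 33.2 FPKM and did not pass (adjusted p = 0.0990). Eip74EF, an ecdysone-induced Ets gene, read 76.4 and 26.8 against 19.2 and 24.1 (0.218). The pnt change of −0.19 lies inside the range of this list, from −2.39 to 1.18.

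Of 8 genes that respond to Egfr signalling, several of them through Pnt, Mkp3 rose, mid and H15 fell and 5 did not pass. The share called higher was 12.5%, against 4.11% of all tested genes. Called lower were 2 of 8, against 8.13% of all tested genes. The list median was −0.06 and turned to 0.23 under median scaling and 0.30 under quantile normalization. It was −0.29 under sum scaling and 0.52 after length correction, where 6 of 8 changes were positive. Mkp3, a phosphatase that limits MAP kinase, rose by 1.69 ± 0.27 (limma adjusted p = 0.0336). The protease gene rho, which releases Egfr ligands, read 34.1 and 23.1 against 162.6 and 70.7 FPKM, a log2 change of 1.90 ± 0.46 that did not pass (0.0527), and the feedback inhibitor sty read 69.0 and 45.7 against 103.2 and 82.3 (0.183). The T-box genes mid and H15 went from 7.62 ± 1.20 to 1.08 ± 0.01 FPKM and from 5.70 ± 2.09 to 0.98 ± 0.13 (adjusted p = 0.0335 and 0.0409). The calls of all 3 genes were lost without reprogrammed replicate 1 or 2 (adjusted p from 0.0977 to 0.302, both for Mkp3), and that of H15 also under quantile normalization (0.0530).

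Around ttk, genes of its breakdown and of its corepressors were lower or not called. Of 6 tested, phyl and MEP-1 fell (33.3%, against 8.13% of all tested genes) and 4 did not pass. The list median was −1.30, from −1.56 to −0.98 over the scalings, against −0.25 for all tested genes. After length correction the median was −0.67, with 1 of 6 changes positive. The number called lower was 6 or 4 without control replicate 1 or 2, and 0 or 1 without reprogrammed replicate 1 or 2. The adaptor gene phyl, whose protein brings Ttk to the ubiquitin ligase Sina, stood at 16.3 and 23.7 FPKM in controls and 2.38 and 4.51 in reprogrammed libraries (−2.26 ± 0.40, limma adjusted p = 0.0364; 0.253 without reprogrammed replicate 1). MEP-1, a corepressor that binds Ttk69, went from 42.7 ± 1.5 to 15.5 ± 1.75 FPKM (−1.41 ± 0.27, adjusted p = 0.0385), a call lost under median scaling (0.0694), under quantile normalization (0.0538), after length correction (0.191) and without reprogrammed replicate 1 (0.411) or 2 (0.203). The remodeller gene Mi-2 read 22.0 and 33.9 against 9.56 and 11.4 FPKM (0.0587) and the corepressor gene CtBP 321.5 and 312.1 against 194.1 and 207.2 (0.145). Another gene of the list, sinah, was listed at 0.06 FPKM in 1 library and at 0 in the others, and was not tested.

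All 4 genes that Ttk is known to repress had lower values in reprogrammed libraries, and 2 of them fell (50.0%, against 8.13% of all tested genes). The neural precursor gene ase stood at 19.7 and 16.4 FPKM in controls and 2.35 and 3.62 in reprogrammed libraries (−2.27 ± 0.35, limma adjusted p = 0.0332). The neuronal RNA-binding gene elav went from 104.6 ± 28.5 to 29.1 ± 5.98 FPKM (−1.80 ± 0.32, adjusted p = 0.0369). Without reprogrammed replicate 1 both calls were lost (0.212 for ase, 0.243 for elav), and that of elav also under median scaling (0.0754) and after length correction (0.171). The stem cell gene dpn read 12.9 and 17.5 against 3.67 and 6.25 FPKM (0.0587), and the cyclin gene CycE 33.0 and 26.5 against 10.2 and 13.6 (0.0545). These are also markers of stem cells, dividing cells or neurons, and lists of neuron and neuroblast markers were lower too. Those lists share genes with this one: elav is counted among the neuron markers, and ase and dpn among the neuroblast markers. Of 12 neuron markers 10 fell (83.3%, against 8.13% of all tested genes), with a summed FPKM of 1044.5 and 890.7 in controls and 200.8 and 291.6 in reprogrammed libraries. That number was 5 under median scaling, 6 under quantile normalization, 2 after length correction (median −0.97 in place of −1.79), and 2 or 6 without reprogrammed replicate 1 or 2. Of 7 neuroblast markers 5 fell (71.4%), with sums of 103.3 and 115.4 against 19.4 and 27.3. They numbered 3 under median scaling and after length correction, 2 under quantile normalization, and 0 or 3 without reprogrammed replicate 1 or 2. All markers of both lists were listed above 0 in each library, and the part of these cell types in the lower values was not tested.

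Among 13 tested BTB zinc-finger genes other than ttk, lola, chinmo, mamo and lov fell (30.8%, against 8.13% of all tested genes) and 9 did not pass. Their median change was −1.0, with all 13 negative (12 of 13 under quantile normalization, 10 after length correction and 11 without control replicate 2). After length correction the median was −0.28. The ttk change of −0.31 lay near the upper end of their range, from −1.71 to −0.29. The most abundant of the called genes was lola, an axon guidance and neuronal fate factor, at 176.7 and 287.9 FPKM in controls and 63.8 and 75.9 in reprogrammed libraries (−1.68 ± 0.33, limma adjusted p = 0.0392). All 4 calls were lost under median scaling, under quantile normalization, after length correction, and without either reprogrammed library, and 10 or 8 of the 13 genes were called lower without control replicate 1 or 2.

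Lamina and blood cells, in which gcm also acts, were looked at through their markers. Of 6 factors of lamina precursors and neurons, dac, sim and bsh fell (50.0%, against 8.13% of all tested genes) and 3 did not pass. The list median was −1.51, from −1.68 to −1.18 over the scalings. The nuclear factor gene dac stood at 50.8 and 33.1 FPKM in controls and 7.44 and 11.6 in reprogrammed libraries (−2.03 ± 0.37, limma adjusted p = 0.0373). The homeobox gene bsh, a marker of one lamina neuron type, stood at 4.27 and 3.75 against 0.54 and 0.53 FPKM (−1.70 ± 0.30, 0.0363), and sim at 1.79 and 2.48 against 0.03 and 0.22 (−1.47 ± 0.30, 0.0399). Like gcm, sim and bsh reached 1 FPKM in the controls alone. The eye and optic lobe gene eya read 26.5 and 19.5 against 6.90 and 12.9 FPKM (0.0987) and svp 9.34 and 13.9 against 21.1 and 19.2 (0.163). The 3 calls were lost under quantile normalization (adjusted p from 0.0548 to 0.0614). That of dac was also lost under median scaling (0.0612) and after length correction (0.105), and that of sim after length correction (0.0906). Without reprogrammed replicate 1 all 3 calls were lost, with changes from −1.74 to −1.35. Those of sim and bsh were also lost without reprogrammed replicate 2, at −1.60 and −1.70. The minimum of 5 FPKM removed sim and bsh. The number called lower was 4 without either control and 0 or 1 without reprogrammed replicate 1 or 2. Summed FPKM of this list was 100.0 and 84.9 in controls against 38.1 and 47.6, and its part in the gcm decrease was not tested.

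Of 15 hemocyte markers srp and ush fell and 13 did not pass, a share of 13.3% that is near the 8.13% of all tested genes (median −0.79 with 13 negative, and −0.09 with 9 negative after length correction). The number called lower was 6 or 4 without control replicate 1 or 2. Their summed FPKM overlapped between the groups, at 837.9 and 516.2 in controls and 433.8 and 644.4 in reprogrammed libraries, and all 15 were listed above 0 in each library. Their part in the gcm decrease was not tested. The GATA factor gene srp stood at 9.49 and 10.97 FPKM in controls and 1.80 and 2.26 in reprogrammed libraries (−1.89 ± 0.32, limma adjusted p = 0.0348). Both hemocyte calls were lost after length correction and without either reprogrammed library. The most abundant marker, He, read 670.8 and 235.8 against 288.8 and 412.5 FPKM (adjusted p = 0.823), and the scavenger receptor gene crq 26.3 and 35.3 against 65.3 and 50.9 (0.0989). Among imaginal disc markers the share called lower was 42.9%, against 8.13% of all tested genes. Of 7 imaginal disc markers Dll, ap and bi fell and 4 did not pass, with sums of 120.3 and 89.7 against 27.1 and 35.8 FPKM. These 3 calls were lost under median scaling, quantile normalization, length correction and without either reprogrammed library. The part of disc tissue in these lower values was not tested.

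**Figure D4:**
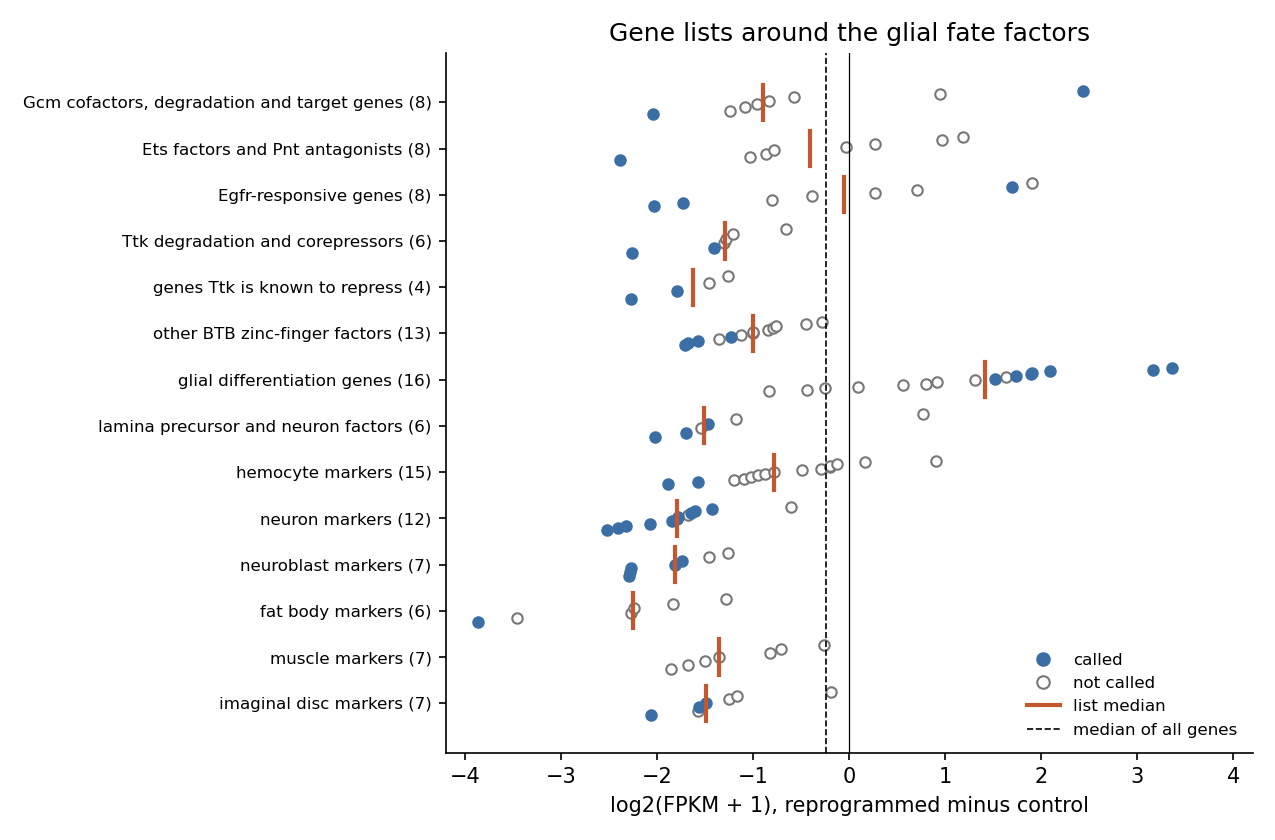
Log2 change, reprogrammed minus control, of each tested gene in 14 lists, with filled points for called genes, orange bars at list medians, the number of tested genes in parentheses and a dashed line at the median of all tested genes (−0.25). The glial differentiation genes have a median of 1.41, and the other 13 lists have medians below 0 on this scale.

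The neuron markers nSyb and Appl were called lower, with log2 changes of −2.53 ± 0.36 and −2.41 ± 0.29. Among the 34 called list genes named by rule, both and the risen loco, moody and Mdr65 kept their calls under all alternatives with a filter. The other 29 lost theirs under at least 1, and all 34 did with no filter, where limma called 0 of 13997 genes with 3629 at an unadjusted p under 0.05. None of the 34 changed sign, which their size nearly fixed in advance.

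Profiles like those of the 5 genes were sought by the distance between log2(FPKM + 1) values over the 4 libraries, each centred on its own mean. With 4 libraries and 9851 genes such likeness is common and it only describes these values. The genes closest to gcm were erm, a zinc-finger factor of intermediate neural progenitors (distance 0.134), Sid (0.211) and CG7465 (0.248). The values of erm were 6.92 and 7.87 FPKM in controls and 0.60 and 0.68 in reprogrammed libraries, close to those of gcm itself in all 4. Closest to repo were GstS1, a glutathione S-transferase (0.125), rgn (0.132) and Targ2 (0.148). For gcm2 they were pigeon, pnr and Dgk (0.034 to 0.049), for pnt CG10516, Rheb and CG42557 (0.039 to 0.067), and for ttk Nipped-B, CG4424 and lncRNA:CR45639 (0.042 to 0.081). In FPKM, pigeon, pnr and Dgk fell less steeply than gcm2, since adding 1 shrinks the change of a low gene. The values of pigeon were 6.47 and 8.94 FPKM in controls and 2.55 and 3.41 in reprogrammed libraries. Those of gcm2 were 1.16 and 1.95 against 0.04 and 0.27. Among the 5 factors themselves pnt and ttk were closest (0.686), and gcm and repo were farthest apart (4.131).

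**Figure D5:**
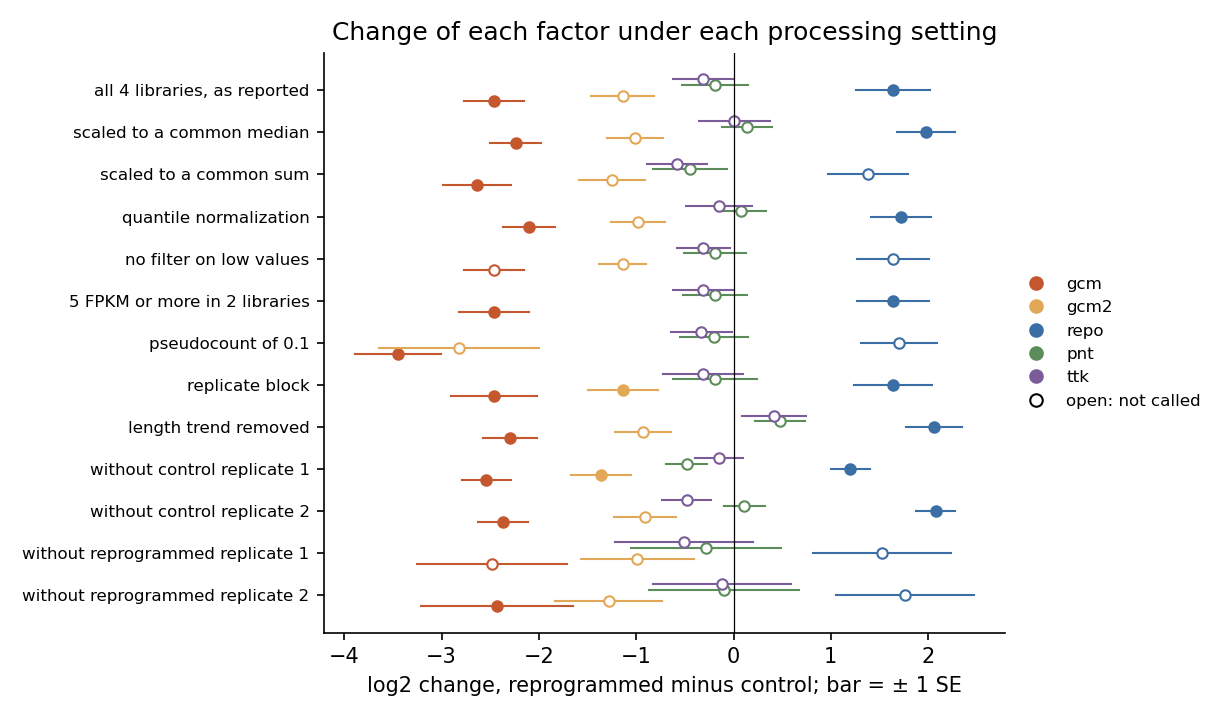
Log2 change of each factor, reprogrammed minus control, with bars of 1 SE, under the reported fit and 12 alternatives, with filled points for called changes. The points of gcm lie between −3.45 and −2.10 and those of repo between 1.20 and 2.08, while pnt and ttk lie on both sides of 0.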

How the data were processed

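Each sample has 1 table of FPKM per gene that the authors deposited, given to 2 decimals per the file headers. Per the labels' protocols, mRNA was selected with oligo(dT) beads and copied from random primers. Per the submitters' processing notes Bowtie2 and HISAT were used. No version, quantifier or genome build is given in the sources used here, and coordinates were left out for that reason. Because FPKM is relative to the mapped total, abundant genes that change can move all others.

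Names came from RefSeq Release 6 by gene number (13960 genes) or transcript accession (2), and 35 genes stayed unnamed. A gene absent from a table was set to 0. Reads were estimated from the spacing of low FPKM values of genes with 1 transcript; within a tolerance of 0.15 reads, 93.5% to 95.6% of those values were whole. They served for depth and counting intervals, and no count test was run. limma 3.58.1 in R 4.3.3 tested log2(FPKM + 1), with group as the only term and a mean-variance trend (2 residual, 3.72 prior degrees of freedom). Alternatives were 3 scalings, no filter, a minimum of 5 FPKM, a pseudocount of 0.1, the replicate number as a block, correction for transcript length (loess, span 0.5; 9839 genes) and each library left out. The scale relative to glial genes was added after seeing the data. Python 3.11.15, scipy 1.17.1 and matplotlib 3.10.9 were also used.

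The 5 genes and the 14 lists were chosen with earlier results of these data known. Named are the 5 genes, up to 4 called genes of largest change and up to 2 uncalled genes of highest FPKM per list, and the 3 genes of nearest profile per factor. Some lists are given by counts, with fewer names.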

Additional observations from a re-analysis of the deposited data

How the results depend on the processing

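Over 12 alternatives gcm stayed negative and repo positive. For gcm the change was −2.46 with no filter on low values, where the call was lost, and between −2.54 and −2.37 with 1 library left out. The gcm2 change ranged from −1.36 to −0.91 with 1 library left out and was −1.14 with the replicate number as a block, where it passed (adjusted p = 0.00972). The repo call was lost at 1.38 under sum scaling, 1.64 with no filter and 1.70 with a pseudocount of 0.1, and repo ranged from 1.20 to 2.08 with 1 library left out. The pnt change turned positive under median scaling (0.14), under quantile normalization (0.08) and after length correction (0.48), and ranged from −0.48 to 0.11 with 1 library left out. The ttk change turned positive under median scaling (0.01) and after length correction (0.42). Of the 5 factors, those called higher fell from 1 to 0 under sum scaling, with no filter and with a pseudocount of 0.1 (0 to 1 with 1 library left out), and those called lower went from 1 to 0 with no filter and to 2 with the block (0 to 2 with 1 library left out). The 14 lists held 123 genes, each counted once. Against 4.11% and 8.13% of all tested genes, 9 of them were called higher and 34 lower. Higher genes numbered 0 with no filter, 14 with the block, 14 after length correction and 3 to 17 with 1 library left out. Lower genes numbered 15 under median scaling, 12 under quantile normalization, 0 with no filter, 62 with the block, 9 after length correction and 3 to 66 with 1 library left out. Leaving out a reprogrammed library leaves only the controls to estimate the spread, and leaving out a control leaves only the closer reprogrammed pair; the lone library is assumed to vary like that pair. Otherwise the cause was not tested.

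The replicate numbers share only a number: the correlation of the replicate differences between the groups was −0.035. The block moved all calls from 405 higher and 801 lower to 872 and 1907. Depth limits gcm2 most, at about 1.0 read in reprogrammed replicate 1. The filter of 5 FPKM removed gcm2 and gave it no value.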
